A study of Rattus norvegicus with 6 samples.

Results

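The 10 genes described here encode the isoforms of the enzymes that set the entry and the pace of glycolysis. They are the hexokinases Hk1, Hk2 and Hk3, the phosphofructokinases Pfkm, Pfkl and Pfkp, and the bifunctional enzymes Pfkfb1, Pfkfb2, Pfkfb3 and Pfkfb4. The genes were chosen by name, and each matched 1 of the 32623 gene rows of the deposited table. Myocardial RNA was sequenced from 3 sham-operated rats and from 3 rats with 30 min of ischemia, produced by ligation of the left anterior descending coronary artery. All animals were labelled wild type and described as male, and the anesthesia, ventilation and left thoracotomy were described for male rats without distinction by group. Strain, age and the sampled part of the heart were not stated in the sources used here. The question was which isoforms of these 3 families were present in the myocardium, and whether their levels and their make-up differed after ischemia.

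Hexokinases phosphorylate glucose as it enters the cell. Phosphofructokinase then commits the sugar to glycolysis, and the PFKFB enzymes make and remove a signalling sugar phosphate that activates phosphofructokinase. Each step has several genes, and the isoforms differ in tissue, in regulation and in their response to low oxygen. Cardiac muscle is known for Hk1 and Hk2, for the muscle subunit Pfkm and for Pfkfb2, the cardiac form that insulin and adrenergic signals activate. Hk3 is known from leukocytes, and Pfkfb3 is the inducible form with the highest ratio of kinase to phosphatase activity.

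Total counts ranged from 68529126 to 79591989 per sample. Defining cardiomyocyte genes were abundant in all samples, and the summed FPKM of 5 such genes (Myh6, Tnnt2, Actc1, Ryr2 and Tnni3) was 23120 to 28710 in sham and 7927 to 15000 in ischemia. FPKM is the read count scaled by gene length and library size, so levels of different genes can be set beside each other. Several libraries stood apart. Summed FPKM of 4 atrial genes (Myl7, Myl4, Sln and Bmp10) was 15120, 147.8 and 14230 in sham replicates 1 to 3, whereas the ischemia samples had 2180, 27.4 and 28.4. Summed FPKM of 3 adipocyte genes was 150.5 in sham replicate 3, 30.0 and 17.5 in sham replicates 2 and 1, and 15.3, 0.0999 and 0.0843 in ischemia. Sham replicate 1 had 161 reads on Y-chromosome genes against 3218 to 8970 in the other samples, which goes against its description as male. The labels named no batch.

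Of the 10 genes, only Hk3 rose in ischemia at an adjusted p under 0.05, by the quasi-likelihood test of edgeR over 13964 genes, where 5.18% of all tested genes were called higher. None was called lower, against 1.53% of all genes, although 2 members (Pfkm and Pfkfb1) were lower at an unadjusted p under 0.05. DESeq2 called both of these lower, against 12.5% of all genes, and called Pfkfb3 higher in addition to Hk3, against 14.8% of all genes. In limma on FPKM Hk3 alone was called higher, against 6.09% of all genes, and 0 members lower, against 1.88%. In all, 4 members had an unadjusted edgeR p under 0.05, against 32.4% of all genes. At a log2 fold change beyond 2 with an unadjusted p under 0.01, Hk3 and Pfkfb3 were higher, against 3.31% of all genes, and Pfkfb1 was lower, against 1.34%. When any 1 sham sample or ischemia replicate 3 was left out, edgeR called 0 of the 13964 genes in either direction, members included, with 3020 to 3809 genes at an unadjusted p under 0.05. Without ischemia replicate 1 it called 1490 genes higher and 1115 lower, of which 2 and 1 were members. For 3 members (Hk3, Pfkl and Pfkfb3) all ischemia samples lay above all sham samples, against 23.6% of genes, and for 2 members (Pfkm and Pfkfb1) all lay below, against 15.0%. Samples of the groups thus did not overlap for 5 of 10 members, against 38.6% of all genes. The median log2 fold change was 0.41 over the 10 members and -0.0015 over all tested genes. In bulk tissue, fewer cells of a type and less RNA per cell cannot be told apart, and this holds for every value below.

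**Figure D1:**
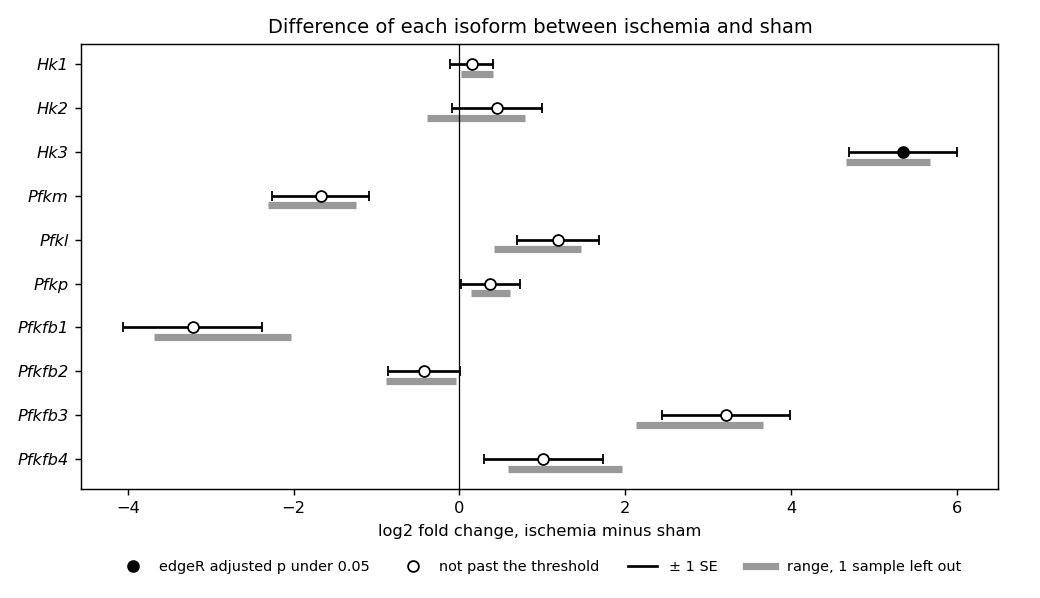
Log2 fold change, ischemia minus sham, of each isoform with its SE from edgeR (black), and the range of the value when each of the 6 samples was left out in turn (grey). Hk3, at 5.35, is the filled point past the adjusted threshold, Pfkfb3 (3.22) and Pfkfb1 (-3.22) lie far from 0 with open points, and the grey range of Hk2 crosses 0.

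Hk1, which binds the outer mitochondrial membrane, was the leading hexokinase in every sample. Its FPKM in sham replicates 1 to 3 was 53.4, 69.5 and 54.1, and in ischemia replicates 1 to 3 it was 61.8, 71.5 and 78.6. The groups overlapped, and the log2 fold change was 0.15 ± 0.26 (SE; edgeR adjusted p 0.712). The value was -0.27 without sham replicates 1 and 3, the libraries with high atrial genes. In the coordinates of the table, whose genome build is not given in the sources used here, the gene spans 31912262 to 31956649 of chromosome 20 (minus strand).

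Hk2, the insulin-responsive hexokinase of muscle and fat, was the next in level. Its FPKM was 16.8, 19.4 and 15.6 in sham and 11.3, 51.5 and 16.1 in ischemia. Sham values lay close together, with a coefficient of variation of 11.2%, whereas in ischemia the coefficient was 83.6% with replicate 2 far above the others. Ischemia replicate 1 was the lowest of all samples. For Hk2 the log2 fold change was 0.45 ± 0.54 (SE; edgeR adjusted p 0.586), and without ischemia replicate 2 it was -0.40. Hk2 spans 113559427 to 113610243 of chromosome 4 (minus strand).

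Hk3, the hexokinase of leukocytes, was close to undetected in sham myocardium. It had 22, 38 and 47 counts in the sham samples and 785, 2869 and 1067 counts in the ischemia samples. Mean FPKM was 0.141 ± 0.055 in sham against 6.39 ± 4.65 in ischemia (SD, n = 3 each). The lowest ischemia sample thus held far more reads than the highest sham sample. Hk3 rose by 5.35 ± 0.65 (SE) on the log2 scale, or 40.7-fold (edgeR adjusted p 0.0272). The exact two-sided permutation p was 0.1, the smallest that 3 samples against 3 allow. Like every other edgeR call, it was lost without any 1 of 4 samples. The edgeR adjusted p was 0.157, 0.0820 and 0.125 without sham replicates 1, 2 or 3, and 0.110 without ischemia replicate 3. The log2 fold change itself ranged from 4.67 to 5.67 when 1 sample was left out. It was 5.14 without sham replicates 1 and 3 (edgeR adjusted p 0.394) and 4.72 with the level of atrial genes as a covariate (0.209). Hk3 spans 10137974 to 10152956 of chromosome 17 (plus strand).

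Within the hexokinase family, shares of the summed FPKM were steady in sham. Hk1 held 77.1% ± 1.0 (SD, n = 3) of hexokinase FPKM in sham, Hk2 held 22.7% ± 1.1 and Hk3 held 0.187% ± 0.084. In ischemia the means were 71.2% ± 15.7 for Hk1, 23.1% ± 13.1 for Hk2 and 5.70% ± 2.60 for Hk3 (SD, n = 3). The share of Hk3 was 3.82%, 8.67% and 4.62% in ischemia replicates 1 to 3, above every sham sample (exact permutation p 0.1). Counting error was small beside this difference. Hk3 took at most 0.281% of hexokinase reads in a sham sample (sham replicate 3, exact 95% interval 0.206% to 0.373%) and at least 4.02% in an ischemia sample (ischemia replicate 1, 3.75% to 4.31%). Ischemia replicates 1 and 3 had Hk2 shares of 14.8% and 16.2%, below all sham samples, and replicate 2 had 38.2%, above them all, so that the ischemia mean combined samples from below and above the sham range. Without ischemia replicate 2 the difference in the Hk2 share was -7.18 percentage points, against 0.40 with it, and that in the Hk1 share was 3.15, against -5.91. In sham the samples of Hk1, Hk2 and Hk3 were separate in level. In ischemia Hk1 remained separate from Hk2, while the ranges of Hk2 and Hk3 met, although Hk2 exceeded Hk3 in all 3 samples.

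**Figure D2:**
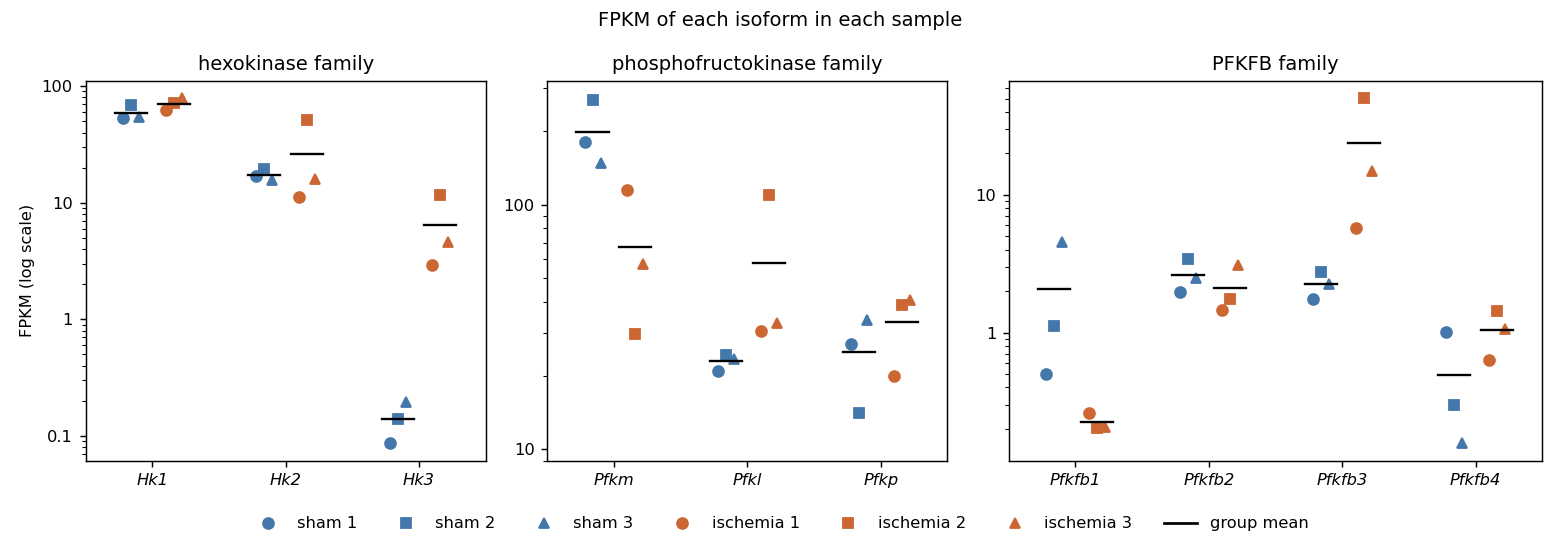
FPKM on a log scale of each isoform in each sham (blue) and ischemia (orange) sample, with the symbol giving the replicate number and the bar the group mean, and with a separate axis for each family. Hk3 and Pfkfb3 of all ischemia samples lie above those of all sham samples, Pfkm and Pfkfb1 lie below, and ischemia replicate 2 (square) is the extreme sample for Hk2, Hk3, Pfkm, Pfkl and Pfkfb3.

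Phosphofructokinase works as a tetramer of the subunits encoded by the next 3 genes. Pfkm, the muscle subunit, had an FPKM of 180.1, 267.6 and 147.8 in sham and of 115.2, 29.6 and 57.4 in ischemia. All ischemia samples were below all sham samples, with the lowest value in replicate 2. Pfkm was 3.19-fold lower in ischemia, at -1.67 ± 0.58 (SE) on the log2 scale. The edgeR p was 0.0268 before and 0.114 after adjustment, and the exact permutation p was 0.1. Without ischemia replicate 1, the ischemia sample with the highest level, it was -2.31 and passed (edgeR adjusted p 0.0439). It was -2.27 without sham replicates 1 and 3 (edgeR adjusted p 0.394) and -1.67 with the level of atrial genes as a covariate (adjusted p 0.331). Pfkm spans 139685573 to 139722132 of chromosome 7 (plus strand).

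Summed FPKM of the cardiomyocyte genes was also lower in every ischemia sample than in every sham sample. Of the 5 genes, 3 (Myh6, Actc1 and Ryr2) were lower in every ischemia sample, while Tnnt2 and Tnni3 overlapped. Per 1000 FPKM of these genes, Pfkm was at 7.26, 9.32 and 6.39 in sham and at 7.68, 3.73 and 4.05 in ischemia. On that scale ischemia replicate 1 lay within the sham range and replicates 2 and 3 lay below it. The outcome differed with the gene used. All ischemia samples were below all sham samples against Tnnt2 or Tnni3, and above them against Myh6, and the groups overlapped against Actc1 or Ryr2. Per 1000 FPKM of Tnnt2, Pfkm was at 34.7, 43.0 and 33.0 in sham and at 20.2, 11.5 and 13.1 in ischemia, and per 1000 FPKM of Myh6 it was at 41.7, 55.8 and 37.9 in sham and at 86.8, 67.6 and 64.8 in ischemia. The part of cardiomyocyte content in the Pfkm difference was not tested.

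Pfkl, the subunit named for liver, had an FPKM of 21.0, 24.4 and 23.4 in sham and of 30.5, 109.6 and 33.0 in ischemia. Among the 10 genes Pfkl had the lowest coefficient of variation in sham. All ischemia samples were above all sham samples, but replicates 1 and 3 by a small margin. For Pfkl the log2 fold change was 1.18 ± 0.49 (SE; edgeR adjusted p 0.155), and it was 0.42 without ischemia replicate 2. With the level of atrial genes as a covariate it was 0.59 (edgeR adjusted p 0.66). Pfkl spans 11393877 to 11415882 of chromosome 20 (plus strand).

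Pfkp, the subunit named for platelets, had an FPKM of 26.9, 14.1 and 33.9 in sham and of 20.0, 39.0 and 40.7 in ischemia. The groups overlapped, and the log2 fold change was 0.37 ± 0.36 (SE; edgeR adjusted p 0.492). Summed FPKM of 3 platelet genes ranged from 21.7 to 55.1 in sham and from 63.0 to 171.9 in ischemia, mostly as Pf4, and the part of platelet RNA in the Pfkp values was not tested. Of the platelet genes, only Pf4 was higher in every ischemia sample than in every sham sample. Sham replicate 2 was the lowest sample for Pfkp and for the platelet sum alike. Ischemia replicate 1 was the next lowest for Pfkp, but its platelet sum (63.0) was above that of every sham sample. The gene spans 68511064 to 68559471 of chromosome 17 (minus strand).

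As shares of the family, Pfkm held 79.5% ± 7.7 of phosphofructokinase FPKM in sham against 43.3% ± 26.5 in ischemia (SD, n = 3). Its share was 79.0%, 87.4% and 72.1% in sham against 69.5%, 16.6% and 43.8% in ischemia. The groups did not overlap (exact permutation p 0.1), although sham replicate 3 and ischemia replicate 1 were near each other. Pfkl held 9.53% ± 1.74 in sham and 35.0% ± 23.2 in ischemia (SD, n = 3; exact permutation p 0.1), and in ischemia replicate 2 it was the leading isoform with 61.5%. Pfkp held 11.0% ± 6.0 in sham and 21.7% ± 9.5 in ischemia, with overlapping groups (exact permutation p 0.2). The differences depended on single samples. Without ischemia replicate 2 the difference in the Pfkl share was 12.3 percentage points, against 25.5 with it, and that in the Pfkm share was -22.9, against -36.2. Without ischemia replicate 3 the difference in the Pfkp share was 6.02 points, against 10.7.

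A ratio of isoforms within 1 library does not depend on how libraries are scaled. Pfkl was at 0.117, 0.0911 and 0.158 of the Pfkm FPKM in sham, and at 0.265, 3.71 and 0.575 in ischemia. On the log2 scale this ratio differed by 2.80 between the groups, which did not overlap (exact permutation p 0.1). The ratio of Pfkp to Pfkm differed by 2.17 on the log2 scale with overlapping groups (exact permutation p 0.2), and that of Pfkp to Pfkl by -0.63 (exact permutation p 0.4). Summed over the family, phosphofructokinase FPKM was 246.4 ± 52.9 in sham against 158.4 ± 24.3 in ischemia (SD, n = 3). All ischemia sums were below all sham sums. In level, Pfkm was separate from both other subunits in sham, where Pfkp and Pfkl did not differ beyond their spread, and no neighbours in the order were separate in ischemia.

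Among the PFKFB genes, Pfkfb2, the cardiac form, had an FPKM of 1.97, 3.45 and 2.48 in sham and of 1.46, 1.76 and 3.12 in ischemia. The groups overlapped, and the log2 fold change was -0.43 ± 0.44 (SE; edgeR adjusted p 0.518). The value was -1.04 with the level of atrial genes as a covariate (edgeR adjusted p 0.333) and -0.99 without sham replicates 1 and 3. Pfkfb2 spans 47413458 to 47440682 of chromosome 13 (minus strand).

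Pfkfb3, the inducible form, had an FPKM of 1.75, 2.75 and 2.27 in sham and of 5.80, 50.3 and 14.8 in ischemia. All ischemia samples were above all sham samples, with an 8.69-fold span among the ischemia samples themselves against 1.57-fold in sham. Pfkfb3 was 9.29-fold higher in ischemia, at 3.22 ± 0.77 (SE) on the log2 scale, and missed the threshold (edgeR adjusted p 0.0561). It was 3.66 without ischemia replicate 1, where it passed (edgeR adjusted p 0.0180), and 2.13 without ischemia replicate 2 (adjusted p 0.0714). With the atrial covariate the log2 fold change was 1.95 (edgeR adjusted p 0.404). Pfkfb3 spans 70684134 to 70711224 of chromosome 17 (plus strand).

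Pfkfb1, the form of liver and skeletal muscle, had an FPKM of 0.498, 1.11 and 4.59 in sham and of 0.260, 0.202 and 0.207 in ischemia. The ischemia samples were lowest and close together, with 43, 30 and 30 counts, while the sham samples spread 9.22-fold. For Pfkfb1 the log2 fold change was -3.22 ± 0.84 (SE; edgeR adjusted p 0.0655), and it was -2.04 without sham replicate 3 and -2.59 without sham replicates 1 and 3. Adipocyte genes moved with it. All 3 of them (Adipoq, Plin1 and Lep) were lower in every ischemia sample than in every sham sample, and sham replicates 3, 2 and 1 had the same descending order for the adipocyte sum and for Pfkfb1. Per 1000 FPKM of adipocyte genes, Pfkfb1 was at 28.4, 37.1 and 30.5 in sham and 17.0 in ischemia replicate 1. In ischemia replicates 2 and 3, where the adipocyte genes were near 0, it was at 2024 and 2459. Sham replicate 3 was also the highest of all samples for the summed smooth muscle markers (525.8 FPKM) and fibroblast markers (1125). The part of adipose or other tissue in the Pfkfb1 difference was not tested. Pfkfb1 spans 23092159 to 23144324 of chromosome X (minus strand).

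Pfkfb4, a form known from testis and from hypoxic cells, was low throughout. Its FPKM was 1.01, 0.299 and 0.157 in sham and 0.632, 1.43 and 1.06 in ischemia, with between 24 and 220 counts. Sham replicate 1 lay within the ischemia range, and the log2 fold change was 1.01 ± 0.71 (SE; edgeR adjusted p 0.350). Without that sample it was 1.96 (edgeR adjusted p 0.189). The gene spans 117737117 to 117775386 of chromosome 8 (plus strand).

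In sham no PFKFB gene dominated the family. Pfkfb2 held 36.4% ± 9.7 (SD, n = 3) of PFKFB FPKM, Pfkfb3 held 31.2% ± 6.5, Pfkfb1 held 24.2% ± 21.1 and Pfkfb4 held 8.30% ± 9.61. In ischemia Pfkfb3 held 80.6% ± 11.7, Pfkfb2 held 12.5% ± 8.0, Pfkfb4 held 5.32% ± 2.55 and Pfkfb1 held 1.55% ± 1.46 (SD, n = 3). The share of Pfkfb3 was 33.5%, 36.2% and 23.9% in sham against 71.1%, 93.7% and 77.1% in ischemia. The share of Pfkfb2 was 37.7%, 45.3% and 26.1% in sham against 18.0%, 3.27% and 16.3% in ischemia. The shares of Pfkfb1, Pfkfb2 and Pfkfb3 did not overlap between the groups (exact permutation p 0.1 each), while those of Pfkfb4 did (exact permutation p 0.9). Shares of a family add up to a fixed whole, so these are not separate results, and the FPKM of Pfkfb2 itself overlapped. Of the differences in share, that of Pfkfb3 was the largest of the 10 genes at 49.4 percentage points, and it was between 42.9 and 54.2 when any 1 sample was left out. The difference in the Pfkfb1 share was -10.5 points without sham replicate 3, against -22.6 with it, and as a share of raw counts, which are not scaled by gene length, it was -12.9 points. For Pfkfb4 the difference was 2.52 points without sham replicate 1, against -2.98 with it.

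The ratio of Pfkfb3 to Pfkfb2 was nearly the same in the 3 sham samples, at 0.890, 0.798 and 0.915. In ischemia it was 3.96, 28.6 and 4.74. On the log2 scale the ratio differed by 3.23 between the groups without overlap (exact permutation p 0.1). In ischemia the 4 genes formed an order, Pfkfb3, Pfkfb2, Pfkfb4 and Pfkfb1, in which all neighbours were separate, whereas in sham no neighbours were separate beyond their spread. Summed PFKFB FPKM was 5.23, 7.61 and 9.49 in sham and 8.15, 53.7 and 19.2 in ischemia, so ischemia replicate 1 had another make-up at a sum within the sham range. Summed hexokinase FPKM was 76.4 ± 10.9 in sham and 103.3 ± 29.6 in ischemia (SD, n = 3), also with overlapping samples.

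**Figure D3:**
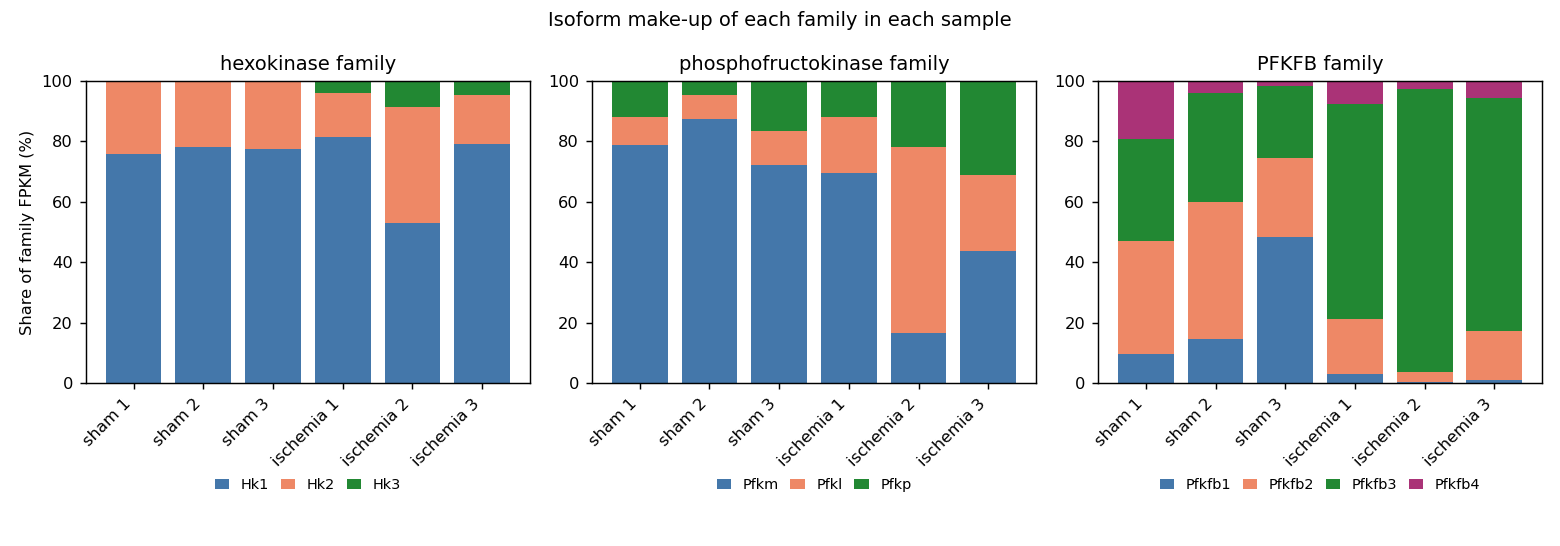
Share of each isoform in the summed FPKM of its family, in percent, for each of the 6 samples. Pfkfb3 takes 71.1% to 93.7% of its family in ischemia against 23.9% to 36.2% in sham, Pfkm takes 16.6% to 69.5% against 72.1% to 87.4%, and Hk2 and Pfkl are extreme in ischemia replicate 2.

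To show the sequence around the starts of these genes, promoter windows of 300 bases (250 before to 50 after the start of transcription) were read from RefSeq on GRCr8, where all 10 genes were matched by symbol only, Hk1 with an additional window. For Pfkp and Pfkfb1 the RefSeq window lies on the plus strand whereas the deposited table gives the minus strand, so whether these windows belong to the deposited gene models was not checked. Both strands were searched for CACGTG, a box bound by Myc and related factors, for ACGTG and GCGTG, which hold the core of hypoxia response elements, for the NF-kB site of the immunoglobulin kappa light chain enhancer, and for a loose NF-kB pattern (G at 3 positions, any base at 5, C at 2). CACGTG contains ACGTG on both strands. CACGTG was found in 1 member, Pfkfb3, and in 6.42% of all 33469 promoters. ACGTG was found in 4 members (Hk1, Hk3, Pfkm and Pfkfb3) and in 19.3% of promoters, and GCGTG in 2 members (Pfkl and Pfkp) and in 29.7%. The kappa enhancer site was found in 0 members and in 0.111% of promoters, and the loose NF-kB pattern in 6 members and in 47.3%. The following stretches, with the match in capitals, were chosen after values were seen, from members whose groups did not overlap, and read 5′ to 3′ along the gene. Those of Hk3 and Pfkm hold ACGTG on the opposite strand.
Pfkfb3, plus strand, chr17:71944882-71944906, match 42 bases before the start: ccttctctcCACGTGaaagggggct
Pfkfb3, plus strand, chr17:71944720-71944744, match 206 bases before the start: aattattGGGGAACTCCgtgcctag
Hk3, plus strand, chr17:9604924-9604948, match 97 bases before the start: tggggaagtaCACGTtcatgaatta
Pfkm, plus strand, chr7:131113957-131113981, match 132 bases before the start: agaccctcacCACGTacacgagctg
Pfkl, plus strand, chr20:10663795-10663819, match 160 bases before the start: gtagactggaGCGTGctccgccctt
ACGTG thus occurred in members that were higher in every ischemia sample (Hk3 and Pfkfb3), in one that was lower in every ischemia sample (Pfkm) and in one whose groups overlapped (Hk1). These letters were not read as binding sites.

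Neutrophil and monocyte genes were also higher in ischemia. Summed FPKM of 10 neutrophil and monocyte genes was 17.3, 31.5 and 14.4 in sham and 1439, 3784 and 806.2 in ischemia. Of the 10 genes, 7 were higher in every ischemia sample than in every sham sample. Fpr1 had 0 counts in 5 samples and Ly6g6e had 0 counts in 3. Different genes made up the sum in different samples. Lcn2 gave 952.1, 137.1 and 337.2 FPKM of it in ischemia replicates 1 to 3, and S100a9 gave 242.3, 2224 and 241.1. Per 1000 FPKM of the 10 genes together, Hk3 was at 4.99, 4.44 and 13.7 in sham and at 2.02, 3.08 and 5.69 in ischemia, with overlapping groups. On the same scale Pfkfb3 was at 101.4, 87.4 and 157.6 in sham and at 4.03, 13.3 and 18.4 in ischemia. Among 5 macrophage genes the sums overlapped, at 134.5 to 193.8 in sham and 168.6 to 279.9 in ischemia. Of these, 3 (Cd68, Csf1r and Mrc1) were higher and 1 (C1qa) was lower in every ischemia sample than in every sham sample. Per 1000 FPKM of the macrophage genes, Hk3 was at 0.494, 1.04 and 1.02 in sham and at 17.2, 41.7 and 23.9 in ischemia, without overlap. Pfkfb3 was at 10.04, 20.5 and 11.7 in sham and at 34.4, 179.9 and 77.3 in ischemia on that scale, also without overlap. The scales built on neutrophil and macrophage genes thus gave different outcomes for both members. The part of leukocyte RNA in the Hk3 and Pfkfb3 differences was not tested. Ischemia replicate 2 had the highest neutrophil and monocyte sum, the lowest cardiomyocyte sum, the highest Hk2, Hk3, Pfkl and Pfkfb3 and the lowest Pfkm. Without it Hk3 stayed past the threshold at 4.67 (edgeR adjusted p 0.0234), Pfkfb3 was at 2.13 (0.0714), Pfkl at 0.42 (0.272) and Pfkm at -1.30 (0.172) on the log2 scale.

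**Figure D4:**
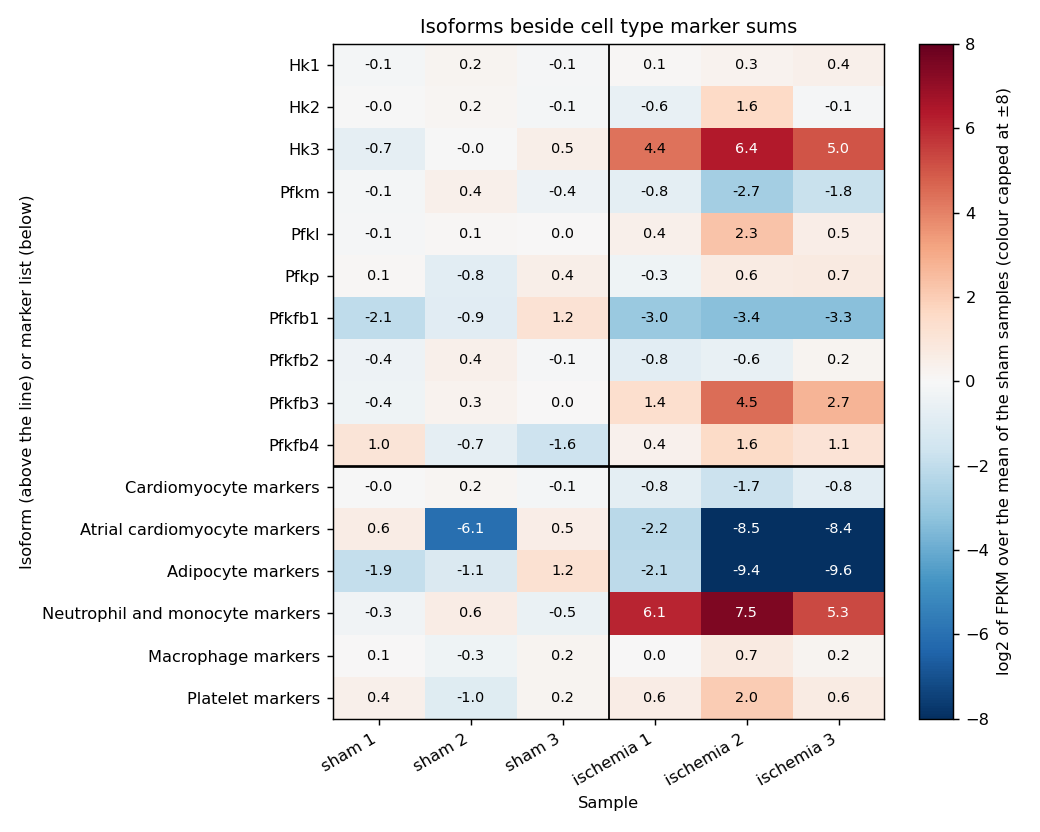
Log2 of the FPKM of each isoform (above the line) and of the summed FPKM of cell type marker lists (below) over the mean of the sham samples, for each sample. The neutrophil and monocyte sum is 5.26 to 7.49 above the sham mean in ischemia and Hk3 is 4.36 to 6.37 above it, and the adipocyte and atrial sums are lowest in ischemia replicates 2 and 3.

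The neighbouring steps of the pathway were described with a list of 18 genes of glucose uptake and upper glycolysis, of which 15 were tested. With edgeR 0 were called higher and 0 lower, against 5.18% and 1.53% of all genes. At an unadjusted p under 0.05, 3 were higher and 2 lower, and the 5 of 15 were close to the 32.4% of all genes. DESeq2 called 3 higher and 2 lower, against 14.8% and 12.5% of all genes, and limma called Slc2a4 lower. Without ischemia replicate 1 edgeR called 3 higher, Slc2a1 among them, and 2 lower, Slc2a4 among them. That fit called 1490 of all 13964 genes higher and 1115 lower. The median log2 fold change was 0.091, with 8 of 15 above 0. At the top was the ubiquitous glucose transporter Slc2a1 (log2 fold change 3.79, edgeR adjusted p 0.0687). FPKM of Slc2a1 was 4.15, 5.60 and 5.46 in sham and 12.4, 196.6 and 29.9 in ischemia, again with the extreme value in ischemia replicate 2. Among the lowest were the insulin-responsive glucose transporter Slc2a4 (-2.54, edgeR adjusted p 0.0667) and Tigar, a phosphatase that lowers the sugar phosphate made by the PFKFB enzymes (-0.61, 0.175). FPKM of Slc2a4 was 128.1, 201.0 and 147.2 in sham and 53.7, 9.65 and 24.7 in ischemia.

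A list of 13 regulators and docking partners of these enzymes was tested whole. Myc, a transcription factor with glycolytic targets, was called higher (log2 fold change 4.29, edgeR adjusted p 0.0246) and 0 genes were called lower, against 5.18% and 1.53% of all genes. At an unadjusted p under 0.05, 2 were higher and 5 lower, against 32.4% of all genes in either direction. DESeq2 called 2 higher and 5 lower, against 14.8% and 12.5% of all genes. Myc FPKM was 2.43, 1.89 and 2.87 in sham against 29.8, 74.5 and 46.3 in ischemia. The Myc call, like all edgeR calls, was lost without sham replicate 1, 2 or 3 (edgeR adjusted p 0.157, 0.0819 and 0.125) or ischemia replicate 3 (0.101), at log2 fold changes of 3.97 to 4.54 when 1 sample was left out. Without ischemia replicate 1, where 1490 of all 13964 genes were called higher and 1115 lower, edgeR called 2 of the 13 higher and 2 lower. The median over the list was -0.31. Hif1a, the hypoxia-inducible factor subunit, had an FPKM of 10.5, 4.83 and 9.63 in sham and of 15.2, 70.7 and 23.1 in ischemia (2.03, edgeR adjusted p 0.0756). Prkaa1, a catalytic subunit of AMP-activated kinase, was at 0.42 (0.428). The lowest values belonged to Ppara, a regulator of fatty acid oxidation (-1.32, edgeR adjusted p 0.118), to the insulin-signalling kinase Akt2 (-0.89, 0.0698) and to Vdac3, one of the outer mitochondrial membrane channels of the family to which hexokinases dock (-0.89, 0.0569).

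Genes whose log2 CPM (counts scaled to library size) followed that of a member most closely over the 6 samples were listed for 4 members, with correlations that are descriptive and share the same libraries. For Hk2 these were Maml1, Ifit2 and Ubp1, with Pearson r of 0.997, 0.983 and 0.979. For Hk3 they were Ctu1, Smpdl3b and Apobec3, with r of 0.9996, 0.998 and 0.997. For Pfkm they were Akr1b1, Acot13 and Iars2, with r of 0.999 each. As they were picked for following Pfkm over these same samples, their negative log2 fold changes (-1.61 to -0.66) are no separate result. For Pfkfb3 they were Cacul1, Plek and Cytip, with r of 0.999, 0.998 and 0.997.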

How the data were processed

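Stranded total RNA libraries of 6 myocardial samples were sequenced by the authors. STAR and HTSeq are named in the submitters' processing notes without version, and the genome build and strand setting are not given in the sources used here, so reads of near-identical or overlapping genes are uncertain. The authors deposited raw counts and FPKM for each sample. Per the labels, each sample had a group and a replicate number.

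From the counts, edgeR 4.0.16 (quasi-likelihood, TMM scaling, no covariate) compared ischemia with sham after removal of genes whose mean FPKM was under 0.5. All 10 members passed this filter, but Hk3 and Pfkfb4 only through their ischemia level and Pfkfb1 only through its sham level. Without the filter the log2 fold change of Hk3 was 5.36 (edgeR adjusted p 0.0289). Adjusted p-values (Benjamini-Hochberg, 13964 genes) were held against 0.05. The SE was derived from the F statistic. For 10 shares, 10 ratios of FPKM and the level of each member, the groups were compared by exact permutation (two-sided, unadjusted), which cannot go below 0.1 here. Intervals cover counting error only. Nothing states that samples came from separate litters or batches, and p-values measure the spread between these samples.

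Alternatives were DESeq2 1.42.0, limma 3.58.1 on log2(FPKM + 0.1) or log2(FPKM + 1), other filters and scalings, shares of raw counts, the replicate number as a block, an atrial covariate (Myl7, Myl4, Sln and Bmp10), removal of the mitochondrial genome and left-out samples. The tests were checked on simulated data. Members, gene lists and marker lists were chosen with earlier results of these data known. Named genes were all members, the genes past the threshold and the 3 highest and lowest of each list, and the 3 genes with the highest correlation to Hk2, Hk3, Pfkm and Pfkfb3, passing over placeholder names. Some genes this rule would name are not reported here. Lists also included endothelial, fibroblast, smooth muscle, erythroid and lymphocyte markers, of which only the lymphocyte sum did not overlap between the groups (3.63 to 4.18 FPKM in sham, 6.82 to 8.66 in ischemia). Computations used R 4.3.3 and Python 3.11.15.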

Additional observations from a re-analysis of the deposited data

How the results depend on the processing

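The atrial covariate and the fit without sham replicates 1 and 3 rest on atrial values of these same libraries. DESeq2 called 2 members higher and 2 lower, against 1 and 0 in edgeR. The number called higher was 0 with the atrial covariate (2 members at an unadjusted p under 0.05) and 0 without sham replicates 1 and 3 together (3 members), where the lone sham sample was assumed to vary like the others. These fits and the one with the replicate block called 0 of 13964 genes (2125, 1707 and 3349 at an unadjusted p under 0.05). The number of members called higher ranged from 0 to 2 and the number called lower from 0 to 1 when 1 sample was left out. The replicate numbers belong to different animals and did not pair the samples. Same-numbered samples had correlations of deviations of -0.0561, -0.0940 and -0.196, and 0 of 6 samples correlated best with their own number. With the replicate block 0 members were higher and 0 lower in edgeR (4 at an unadjusted p under 0.05), and Hk3 was 5.21 (adjusted p 0.0943). The direction changed for Hk1 (-0.20) and Hk2 (-0.38) with the atrial covariate, for Hk1 (-0.27) without sham replicates 1 and 3, and for Hk2 without ischemia replicate 2 (range -0.40 to 0.79 when 1 sample was left out). The cause was not tested. In 182 of 186 values the log2 fold change of a member kept its direction. The differences in share of Hk1, Hk2 and Pfkfb4 changed sign when 1 sample was left out. As shares of raw counts only the difference of Hk2 changed sign (-1.04 points against 0.40), and that of Pfkfb1 was -12.9 against -22.6. Over all genes DESeq2 called 2071 higher and 1742 lower against 723 and 214, a share of higher calls of 54.3% against 77.2%. A minimum mean FPKM of 5 left 6 members in the test, without Hk3, and Pfkfb3, which met it only through its ischemia level, then had an edgeR adjusted p of 0.04998. In limma the share of higher calls was 76.4% without and 64.9% with quantile normalization. Depth limits Hk3 in sham (22 to 47 counts), Pfkfb1 in ischemia (30 to 43) and Pfkfb4 (24 to 220).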
